A study of Homo sapiens and Mus musculus with 12 samples.

Results

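The 33 genes described here act in homologous recombination, the Fanconi anemia pathway, mismatch repair and the DNA damage checkpoints. They were taken as a list of human symbols and the mouse genes of the same symbol. The rule uses no measured value, but the list was drawn up with earlier results of these data known. All 33 were found among the 63677 gene identifiers counted for MDA-MB-231 and the 47729 counted for 4T1. MDA-MB-231 is a human triple-negative breast cancer line and 4T1 a mouse mammary carcinoma line, both of wild-type genotype by their labels and grown in DMEM with serum and antibiotics. Cells of each line received ponatinib, an inhibitor of several tyrosine kinases, at 1 μM for 24 h, or the solvent DMSO for the same time. RNA sequencing (RNA-seq) of total RNA gave 3 libraries per group, 4 groups and 12 libraries. The question put to these genes is whether their transcripts changed with ponatinib, and whether the change differed between the lines. Each species is represented by 1 line grown as a monoculture, and nothing states that the 3 libraries of a group came from separate cultures, so that p-values measure the spread between these libraries, which may be technical.

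Homologous recombination repairs a DNA double-strand break by copying the sister chromatid. The ends are resected, BRCA1, PALB2 and BRCA2 prepare the single strand for invasion of the intact copy, and XRCC2, XRCC3 and the RAD54 proteins are among those that assist the invasion. The Fanconi anemia pathway unhooks crosslinks between the DNA strands, mismatch repair corrects replication errors, and ATM and ATR, with CHEK2 and CHEK1, halt the cell cycle at damaged or stalled DNA. Many of these genes are transcribed mainly in S phase and G2 phase of proliferating cells.

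The gene counts of a library summed to between 15012884 and 17301760 in MDA-MB-231 and between 17800675 and 18951493 in 4T1, and no library was a copy of another. Levels are given as counts per 1000000 counts (CPM) on totals scaled by the trimmed mean of M values (TMM), and changes as log2 fold changes of ponatinib against DMSO with their standard error (SE) from edgeR's quasi-likelihood test. A gene is called at a Benjamini-Hochberg adjusted p under 0.05 over all genes tested in the line. The epithelial markers KRT8, KRT18 and KRT19 were high in all 12 libraries, CDH1 was at or near 0 in MDA-MB-231 (0 to 0.0631 CPM), and Epcam was low in 4T1 (2.10 to 2.90 CPM). Of the leukocyte and endothelial markers none exceeded 2.23 CPM in either line. The summed fibroblast markers (PDGFRA, PDGFRB, DCN) lay between 0.265 and 0.712 CPM under DMSO and between 8.35 and 10.7 CPM under ponatinib in MDA-MB-231, nearly all of it PDGFRB, while DCN stayed at or under 0.0663 CPM, and in 4T1 the sum lay between 2.89 and 4.76 CPM under DMSO and between 1.28 and 1.74 CPM under ponatinib. The part of these markers in the results on the repair genes was not tested.

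In MDA-MB-231, most of the repair and checkpoint genes were lower with ponatinib. Of the 33 genes, 25 were called lower (75.8%), 1 was called higher and 7 were not called, where 26.8% of the 14610 genes tested were lower and 27.2% higher. With the replicate number as a block 27 were lower and 3 higher, and without 1 library at a time 24 to 27 were lower and 0 to 2 higher. The median log2 fold change was -0.73 over the 33 genes and 0.02 over all genes tested. All 3 ponatinib libraries lay below all 3 DMSO libraries for 26 of the genes, as they did for 29.8% of all genes, and above them for 1 gene, as for 30.6% of all genes. At a fold of at least 2, 8 genes were lower against 5.16% of all genes, namely XRCC2, FANCB, EXO1, ATRIP, RAD51AP1, RAD54B, RAD54L and BRIP1. At the study's thresholds, an unadjusted p under 0.05 and a fold of at least 1.5, 21 of the genes were lower against 14.5% of all genes and 0 were higher against 19.3%. The summed level of the 33 genes was 1111.7 ± 21.5 CPM (SD, n = 3) under DMSO and 686.2 ± 20.0 CPM (SD, n = 3) under ponatinib. In bulk RNA, fewer cells in a state that transcribes these genes and less of their RNA per cell cannot be told apart.

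In 4T1 genes of the list were called both lower and higher, the higher ones at a share below that of all genes. Of the 32 genes tested, 15 were called lower (46.9%), 8 were called higher (25.0%) and 9 were not called, where 29.4% of the 13286 genes tested were lower and 29.5% higher. With totals not scaled by TMM the balance over all genes shifted from 3909 lower and 3925 higher to 2935 lower and 4854 higher, and 12 genes of the list were lower and 8 higher. Groups did not overlap for 16 lower genes and 8 higher genes, against 30.8% and 32.6% of all genes. The median was -0.25 over the 32 genes and 0.00 over all genes. The sum over the list was 715.3 ± 35.0 CPM (SD, n = 3) under DMSO and 604.2 ± 12.1 CPM (SD, n = 3) under ponatinib. Atrip, which encodes the partner protein of the kinase ATR, had 12 counts in the 6 libraries of 4T1 together and was not tested. Of its exonic bases, 10.1% are shared with Trex1 on the same strand, which had 0 counts. The effect of this overlap on the counts was not tested. At a fold of at least 2, only Pms2 was lower among the 32 genes, against 4.84% of all genes. At the study's thresholds 6 genes were lower against 13.1% of all genes and 4 were higher against 18.4%.

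**Figure D1:**
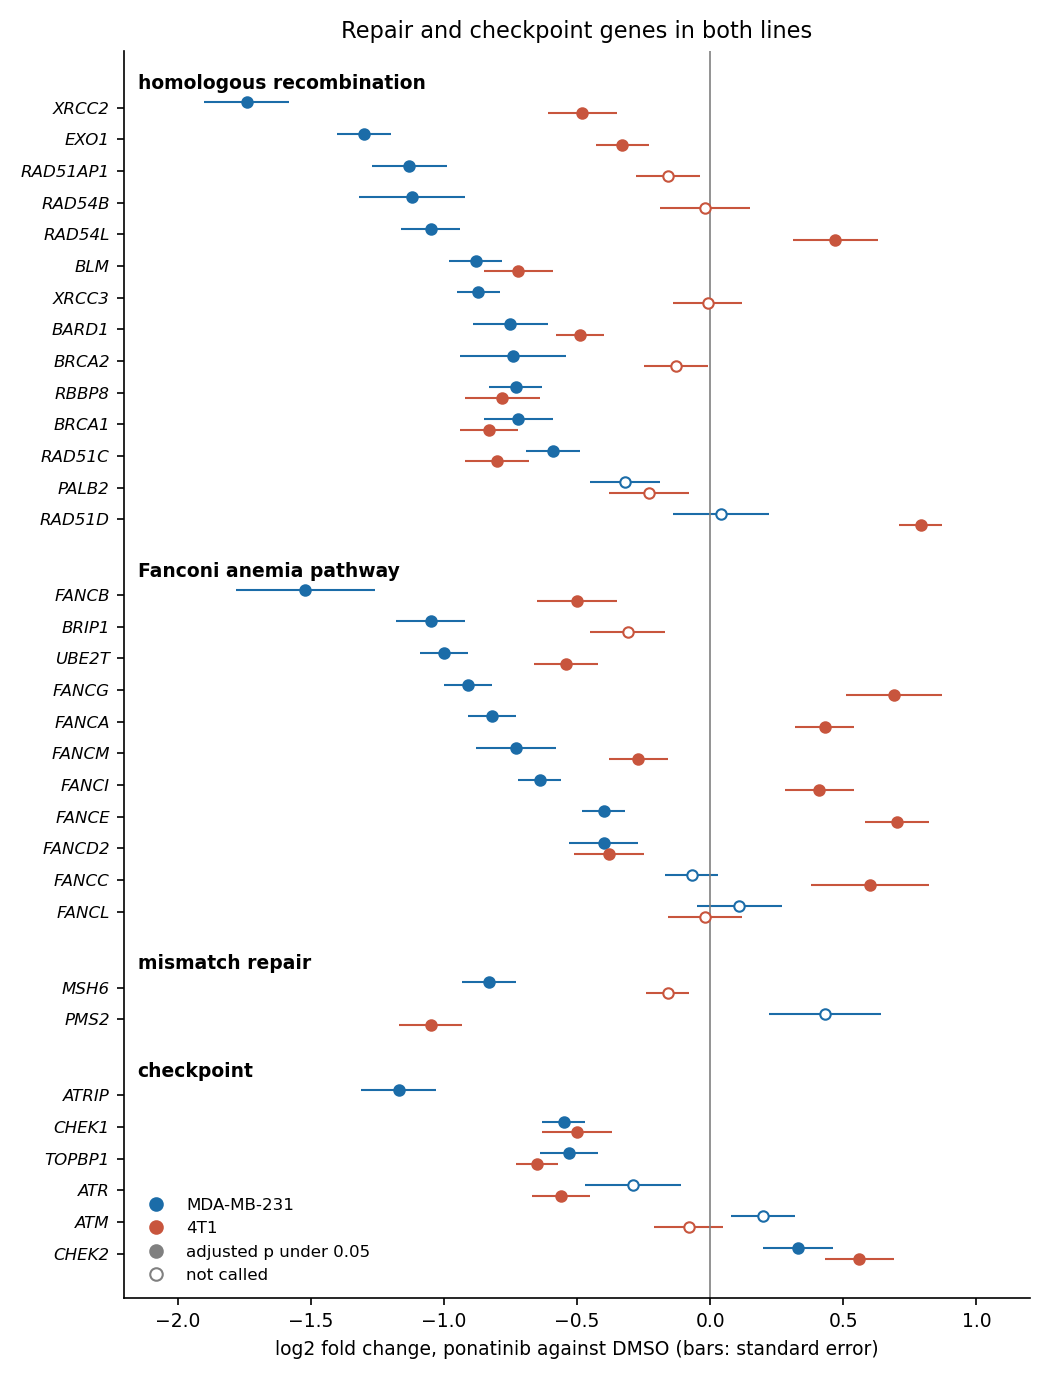
Log2 fold change of ponatinib against DMSO on the x axis for the 33 genes, grouped by role, in MDA-MB-231 (blue) and 4T1 (red), with bars for the standard error and filled points for an adjusted p under 0.05 (edgeR quasi-likelihood test). In MDA-MB-231, 25 filled points lie to the left of 0 and only CHEK2 lies filled to the right, while in 4T1, 15 lie to the left and 8 to the right.

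A set of 13 genes was called lower in both lines, and the promoters of the 4 with the lowest mean of both log2 fold changes are shown, as they are the members that moved furthest in the same direction. They belong to XRCC2, which assists strand invasion, FANCB, a subunit of the Fanconi core complex, EXO1, the exonuclease that lengthens resected ends, and BLM, the helicase that dissolves joint molecules. The sequences are the 250 bases before the transcription start in the RefSeq table for GRCh38.p14, 5′ to 3′ on the strand of the gene: chr7:152676142-152676391 on the minus strand for XRCC2, chrX:14873070-14873319 on the minus strand for FANCB, chr1:241847954-241848203 on the plus strand for EXO1 and chr15:90717096-90717345 on the plus strand for BLM. Capitals mark, on either strand, the E2F motifs searched (TTCCCGC or TTCGCGC or TTGCCGC or TTGGCGC), the cell cycle homology region (TTTGAA or TTTAAA) and the CCAAT box (CCAAT).
XRCC2: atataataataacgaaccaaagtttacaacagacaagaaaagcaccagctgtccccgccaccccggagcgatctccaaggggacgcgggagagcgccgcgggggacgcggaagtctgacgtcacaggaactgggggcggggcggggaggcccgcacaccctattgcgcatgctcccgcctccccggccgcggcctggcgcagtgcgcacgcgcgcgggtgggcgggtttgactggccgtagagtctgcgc
FANCB: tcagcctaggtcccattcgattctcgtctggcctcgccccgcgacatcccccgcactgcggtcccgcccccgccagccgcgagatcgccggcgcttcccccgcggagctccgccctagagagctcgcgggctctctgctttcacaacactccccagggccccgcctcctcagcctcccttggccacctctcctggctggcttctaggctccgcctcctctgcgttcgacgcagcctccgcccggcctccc
EXO1: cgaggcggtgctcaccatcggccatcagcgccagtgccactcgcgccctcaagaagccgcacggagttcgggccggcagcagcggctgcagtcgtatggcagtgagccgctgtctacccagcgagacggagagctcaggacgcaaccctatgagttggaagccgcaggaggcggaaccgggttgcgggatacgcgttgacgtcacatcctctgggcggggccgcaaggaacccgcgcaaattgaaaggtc
BLM: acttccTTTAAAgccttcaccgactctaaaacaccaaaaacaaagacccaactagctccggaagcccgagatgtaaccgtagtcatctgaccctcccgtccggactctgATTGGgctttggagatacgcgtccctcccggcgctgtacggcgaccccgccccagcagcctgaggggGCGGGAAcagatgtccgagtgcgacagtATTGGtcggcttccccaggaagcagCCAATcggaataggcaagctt

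The BLM window held an E2F motif that begins 74 bases before the start, 3 CCAAT boxes and TTTAAA, which reads the same on both strands. The windows of XRCC2, FANCB and EXO1 held none of these letters before the start. Directly after the start, the first 30 transcribed bases held an E2F motif in XRCC2, EXO1 and BLM, and these were added after the motifs had been seen.
XRCC2: agttggtgaatggcgttggtgGCGGGAAag
EXO1: agcctTTCGCGCgctgtgtaggcaagttac
BLM: ccgGCGGGAAgtgagccagggcTTGGCGCg

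Over the list, a window was at hand for 31 of the 33 human genes (none for FANCI and RAD54B) and, read from GRCm39 at the GENCODE starts, for all 33 mouse genes. In the 250 bases before the start, an E2F motif stood in 10 of the 31 human genes (32.3%), against 10.9% of all 35116 windows of the table and 17.7% of those of 10684 tested genes. In mouse it stood in 7 of 33 (21.2%), against 8.97% of 21229 windows and 12.7% of those of 11750 tested genes. With the 50 bases after the start included, an alternative chosen after seeing the data, the shares were 61.3% of the human genes against 13.0% and 21.0%, and 45.5% of the mouse genes against 11.2% and 15.9%. A CCAAT box was found before the start in 51.6% of the human genes against 32.0% and 35.1%, and in 51.5% of the mouse genes against 36.5% and 35.9%. The cell cycle homology letters were found in 16.1% of the human genes, between 21.9% of all windows and 12.9% of those of tested genes, and in 9.09% of the mouse genes, below both 24.8% and 20.3%. A match in letters is a description of the window and does not show that a factor binds there.

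Among the 14 genes of homologous recombination, 12 fell and none rose in MDA-MB-231 (median log2 fold change -0.81), beside 26.8% and 27.2% of all genes. In 4T1, 7 fell (50.0%) and 2 rose (14.3%, median -0.28), beside 29.4% and 29.5% of all genes. The summed level of the 14 genes was 380.3 ± 4.30 CPM under DMSO and 206.0 ± 2.09 CPM under ponatinib in MDA-MB-231, and 308.7 ± 21.5 CPM and 255.9 ± 7.62 CPM in 4T1 (SD, n = 3 each).

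Ends are first cut back by RBBP8 (CtIP) and EXO1, under control of BRCA1 and BARD1, which form a ubiquitin ligase. In MDA-MB-231, EXO1 stood at 37.5, 38.7 and 42.3 CPM under DMSO and at 15.5, 17.2 and 15.5 CPM under ponatinib. Every ponatinib library lay far below every DMSO library, and the log2 fold change of -1.30 (SE 0.10, edgeR quasi-likelihood test with Benjamini-Hochberg adjustment, adjusted p = 9.12e-07) was the best supported of the list in this line. In 4T1 Exo1 fell from 28.3 ± 1.34 to 22.5 ± 0.940 CPM (SD, n = 3 each), at -0.33 on the log2 scale, a call that was lost with unscaled totals (-0.22, adjusted p = 0.0715 in edgeR's test). BRCA1 (ENSG00000012048, hg38 chromosome 17, 43044295 to 43170245, minus strand) stood at 21.2, 25.8 and 23.7 CPM under DMSO and at 14.3, 12.4 and 16.0 CPM under ponatinib in MDA-MB-231. In 4T1 its values were 27.9, 32.2 and 29.4 CPM against 16.6, 18.0 and 15.9 CPM. The groups were separate in both lines, at log2 fold changes of -0.72 (SE 0.13, adjusted p = 0.000465) and -0.83 (SE 0.11, adjusted p = 1.1e-05 in edgeR's test), with a difference between the lines of -0.10 (SE 0.16) that was not called. BARD1 also fell, by 0.75 on the log2 scale in MDA-MB-231 and by 0.49 in 4T1. Rbbp8 in 4T1 stood at 37.6, 54.7 and 52.1 CPM against 23.7, 32.4 and 28.1 CPM. The lowest DMSO library still exceeded the highest ponatinib library, and the log2 fold change was -0.78 (SE 0.14, adjusted p = 0.000226 in edgeR's test), beside -0.73 for RBBP8 in MDA-MB-231.

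After resection BRCA2, which PALB2 ties to BRCA1, prepares the single strand for invasion. BRCA2 in MDA-MB-231 read 6.70, 8.94 and 8.87 CPM under DMSO and 3.72, 6.18 and 4.82 CPM under ponatinib, and the lowest DMSO value lay only just above the highest ponatinib value. Its log2 fold change was -0.74 (SE 0.20, adjusted p = 0.00857 in edgeR's test). In 4T1 the values of Brca2 were 18.7, 24.4 and 22.1 CPM against 18.9, 20.8 and 20.0 CPM. These groups overlapped, with a log2 fold change of -0.13 that was not called, and 12.3% of the exonic bases are shared with N4bp2l1 on the opposite strand, which was at 1.24. The difference between the lines, 0.61 (SE 0.23), passed the test at an adjusted p of 0.0348 in edgeR, and was lost when any 1 of 8 of the 12 libraries was left out (0.45 to 0.62, adjusted p up to 0.0945). PALB2 was not called in either line, at -0.32 in MDA-MB-231 and at -0.23 in 4T1. With the replicate number as a block its fall in MDA-MB-231 was called (-0.32, adjusted p = 0.0233 in edgeR's test), as it was without the first DMSO library (-0.39, adjusted p = 0.0454).

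RAD51AP1, which aids the pairing of strands, stood at 24.3, 30.9 and 32.6 CPM under DMSO and at 11.6, 13.4 and 15.1 CPM under ponatinib in MDA-MB-231. The groups were well apart, with a log2 fold change of -1.13 (SE 0.14, adjusted p = 3.36e-05 in edgeR's test). In 4T1 Rad51ap1 was not called, at -0.16. Among the motor proteins of strand invasion, RAD54B in MDA-MB-231 read 4.97, 4.99 and 5.98 CPM against 2.02, 2.42 and 2.85 CPM. It fell by 1.12 on the log2 scale (SE 0.20, adjusted p = 0.000607 in edgeR's test) from a low level, and its mouse gene was at -0.02 (SE 0.17), which turns to 0.10 when totals are not scaled by TMM. Of its exonic bases, 66.0% in human and 33.7% in mouse are shared with FSBP on the same strand, so that its counts are uncertain.

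The related genes XRCC2, XRCC3, RAD51C and RAD51D, which act around strand invasion, went different ways. XRCC2 (ENSG00000196584, hg38 chromosome 7, 152644776 to 152676193, minus strand) fell furthest of all 33 genes in MDA-MB-231, from 12.3, 11.8 and 12.5 CPM under DMSO to 2.90, 3.89 and 4.11 CPM under ponatinib. The gap between the groups was wide against the spread within them, and the log2 fold change was -1.74 (SE 0.16, adjusted p = 3.51e-06 in edgeR's test), so that its level fell by 70.1%. In 4T1 Xrcc2 fell from 14.6 ± 2.05 to 10.4 ± 0.388 CPM (SD, n = 3 each), at -0.48 on the log2 scale. Rad51c in 4T1 stood at 17.8, 20.0 and 17.9 CPM under DMSO and at 9.76, 11.6 and 10.5 CPM under ponatinib. The groups were well apart, at a log2 fold change of -0.80 (SE 0.12, adjusted p = 4.44e-05 in edgeR's test), beside -0.59 in MDA-MB-231, a difference of -0.21 (SE 0.15) that was not called. Rad51d, in contrast, was the gene of the list that rose most in 4T1, from 31.0, 30.4 and 28.5 CPM to 53.2, 49.3 and 53.1 CPM. Its ponatinib libraries all lay far above its DMSO libraries, at a log2 fold change of 0.79 (SE 0.08, adjusted p = 2e-06 in edgeR's test), while RAD51D in MDA-MB-231 was low and overlapped between groups (4.55 ± 0.440 against 4.69 ± 0.616 CPM, SD, n = 3 each). XRCC3 was called lower in MDA-MB-231 at -0.87 and stayed at -0.01 in 4T1, but 76.7% of its exonic bases in human and 43.4% in mouse are shared with KLC1 on the opposite strand, and the strand setting of the counting is not given in the sources used here.

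**Figure D2:**
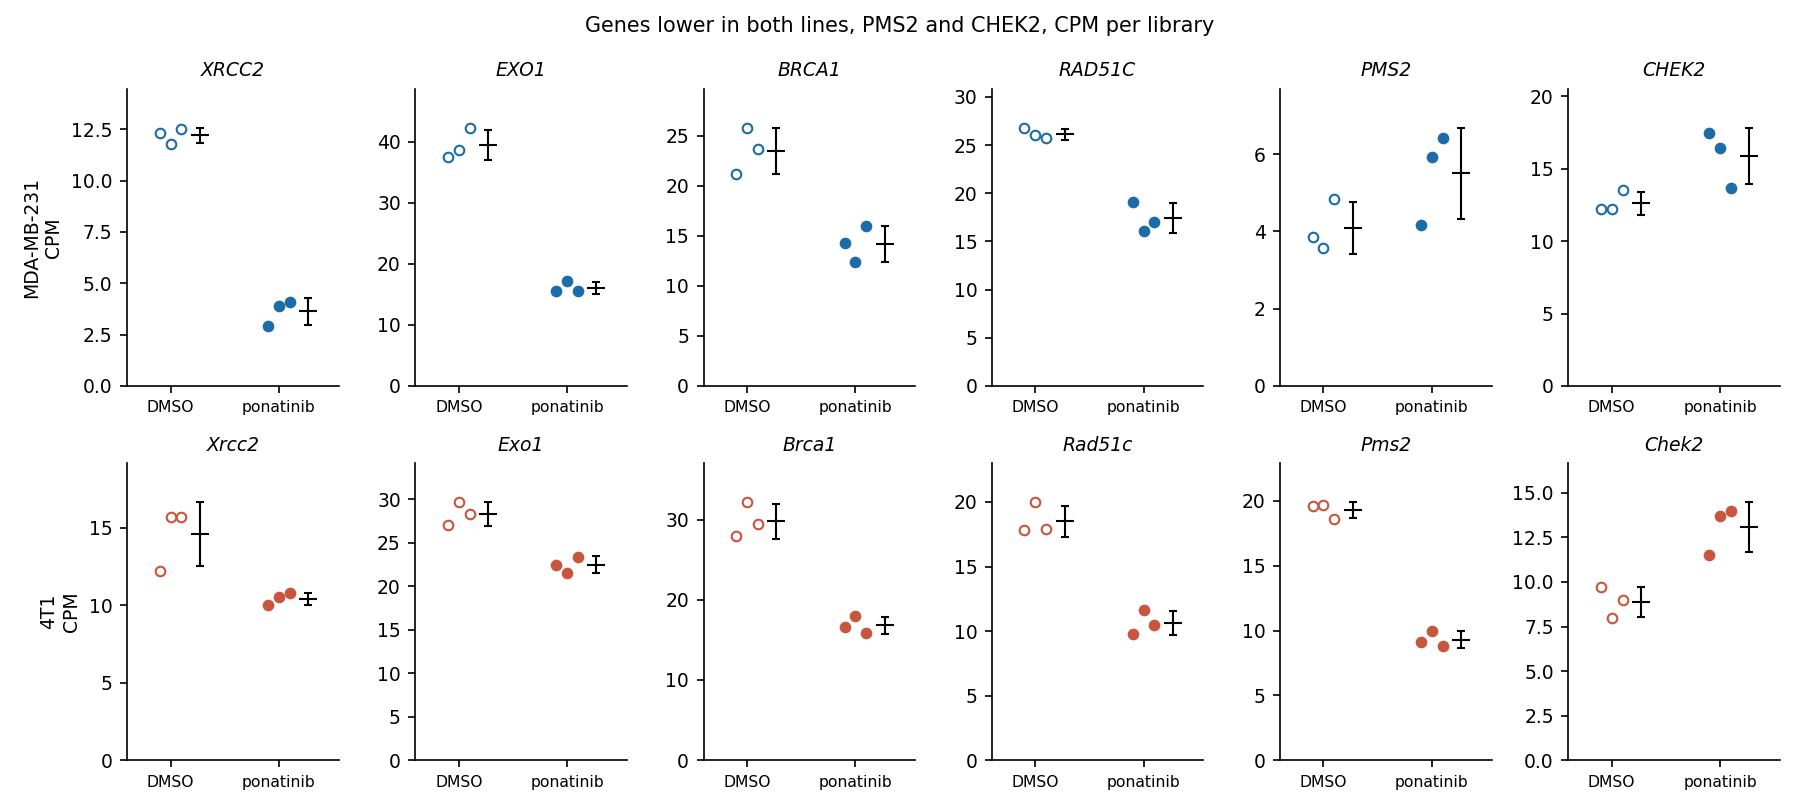
CPM (y axis, from 0) of XRCC2, EXO1, BRCA1, RAD51C, PMS2 and CHEK2 in each library of MDA-MB-231 (top, blue) and 4T1 (bottom, red) under DMSO (open points) and ponatinib (filled points), with the mean and SD of the 3 libraries in black. XRCC2 drops from about 12.2 to 3.63 CPM in MDA-MB-231, PMS2 separates the groups only in 4T1, and CHEK2 is the gene whose ponatinib libraries lie above the DMSO libraries in both lines.

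BLM was lower in both lines. Blm in 4T1 stood at 17.4, 21.8 and 20.2 CPM under DMSO and at 12.8, 12.9 and 10.4 CPM under ponatinib. The groups did not overlap, with a log2 fold change of -0.72 (SE 0.13, adjusted p = 0.000236 in edgeR's test), and in MDA-MB-231 the fall was from 28.1 ± 0.554 to 15.3 ± 0.590 CPM (SD, n = 3 each), at -0.88 on the log2 scale.

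The Fanconi anemia genes were mostly lower in MDA-MB-231. There, 9 of the 11 fell and none rose (median -0.73), beside 26.8% and 27.2% of all genes. In 4T1, 4 fell (36.4%) and 5 rose (45.5%, median -0.02), beside 29.4% and 29.5% of all genes. Their summed level went from 470.4 ± 3.70 to 291.8 ± 5.31 CPM in MDA-MB-231 and from 147.2 ± 5.39 to 155.8 ± 8.15 CPM in 4T1 (SD, n = 3 each).

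Most of the 5 genes that were lower in MDA-MB-231 and higher in 4T1 belong to this pathway. These are FANCA, FANCE and FANCG, subunits of the core complex, and FANCI, which together with FANCD2 is the substrate of the complex. The fifth is RAD54L, the RAD54 motor protein of homologous recombination. Of the 9841 genes tested in both lines, 5.51% had this pattern, against 5 of the 32 here, and 5.06% had the opposite one, against 0 here. FANCG (ENSG00000221829, hg38 chromosome 9, 35073835 to 35080004, minus strand) stood at 132.7, 119.1 and 110.3 CPM under DMSO and at 63.6, 67.6 and 61.4 CPM under ponatinib in MDA-MB-231. Fancg (ENSMUSG00000028453, GRCm39 chromosome 4, 43002337 to 43010527, minus strand) stood at 4.42, 3.33 and 3.23 CPM against 5.67, 5.63 and 6.40 CPM in 4T1. Neither line showed an overlap, and the log2 fold changes of -0.91 (SE 0.09) and 0.69 (SE 0.18) differed by 1.60 (SE 0.17, adjusted p = 8.38e-07 for the interaction in edgeR's test), the widest difference of the list.

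RAD54L (ENSG00000085999, hg38 chromosome 1, 46246461 to 46278480, plus strand) read 50.6, 44.7 and 47.8 CPM under DMSO and 26.3, 21.8 and 21.1 CPM under ponatinib in MDA-MB-231. Rad54l (ENSMUSG00000028702, GRCm39 chromosome 4, 115948561 to 115980894, minus strand) read 4.37, 4.95 and 4.59 CPM against 6.29, 5.89 and 7.05 CPM in 4T1. The groups were separate in both, with log2 fold changes of -1.05 (SE 0.11) and 0.47 (SE 0.16) and a difference of 1.51 (SE 0.18, adjusted p = 1.81e-06 in edgeR's test). The rise in 4T1 was at an adjusted p of 0.0194 in edgeR, and it was lost in DESeq2 (0.46, adjusted p = 0.0795) and without the first DMSO library (0.42, adjusted p = 0.0512), the third DMSO library (0.46, adjusted p = 0.0502) or the third ponatinib library (0.39, adjusted p = 0.0805). In human 19.9% and in mouse 22.2% of its exonic bases are shared with LRRC41 on the opposite strand, whose log2 fold changes were 0.20 and -0.18.

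FANCA (ENSG00000187741, hg38 chromosome 16, 89726683 to 89816977, minus strand) stood at 43.6, 43.0 and 42.6 CPM against 22.5, 25.2 and 25.5 CPM in MDA-MB-231. Fanca (ENSMUSG00000032815, GRCm39) stood at 15.0, 13.5 and 14.0 CPM against 19.2, 17.8 and 20.4 CPM in 4T1. The fall was -0.82 (SE 0.09) and the rise 0.43 (SE 0.11), without overlap in either line, and the difference of 1.25 (SE 0.14) had the smallest adjusted p of the list, 8.32e-07 in edgeR's test. Of its exonic bases, 19.6% in human and 28.5% in mouse are shared with ZNF276 (Zfp276) on the opposite strand, at log2 fold changes of -0.27 and 0.10.

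FANCE (ENSG00000112039, hg38 chromosome 6, 35452338 to 35467104, plus strand) read 70.6, 66.5 and 65.6 CPM under DMSO and 52.0, 50.5 and 50.8 CPM under ponatinib in MDA-MB-231. Fance (ENSMUSG00000007570, GRCm39 chromosome 17, 28532488 to 28545546, plus strand) read 22.1, 22.0 and 26.8 CPM against 36.9, 34.6 and 44.0 CPM in 4T1. Both shifts were clear of the spread within groups, at -0.40 (SE 0.08) and 0.70 (SE 0.12), and differed by 1.11 (SE 0.14, adjusted p = 5.86e-06 in edgeR's test). FANCI (ENSG00000140525, hg38 chromosome 15, 89243945 to 89317261, plus strand) read 76.9, 83.8 and 86.7 CPM against 54.6, 50.0 and 53.9 CPM in MDA-MB-231. Fanci (ENSMUSG00000039187, GRCm39 chromosome 7, 79041677 to 79100027, plus strand) read 9.53, 10.7 and 12.7 CPM against 13.9, 15.2 and 14.7 CPM in 4T1. The groups were again separate, with log2 fold changes of -0.64 (SE 0.08) and 0.41 (SE 0.13) and a difference of 1.05 (SE 0.14, adjusted p = 1.17e-05 in edgeR's test). In mouse 18.2% of the exonic bases of Fanci are shared with Polg on the opposite strand, which had a log2 fold change of -0.27.

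**Figure D3:**
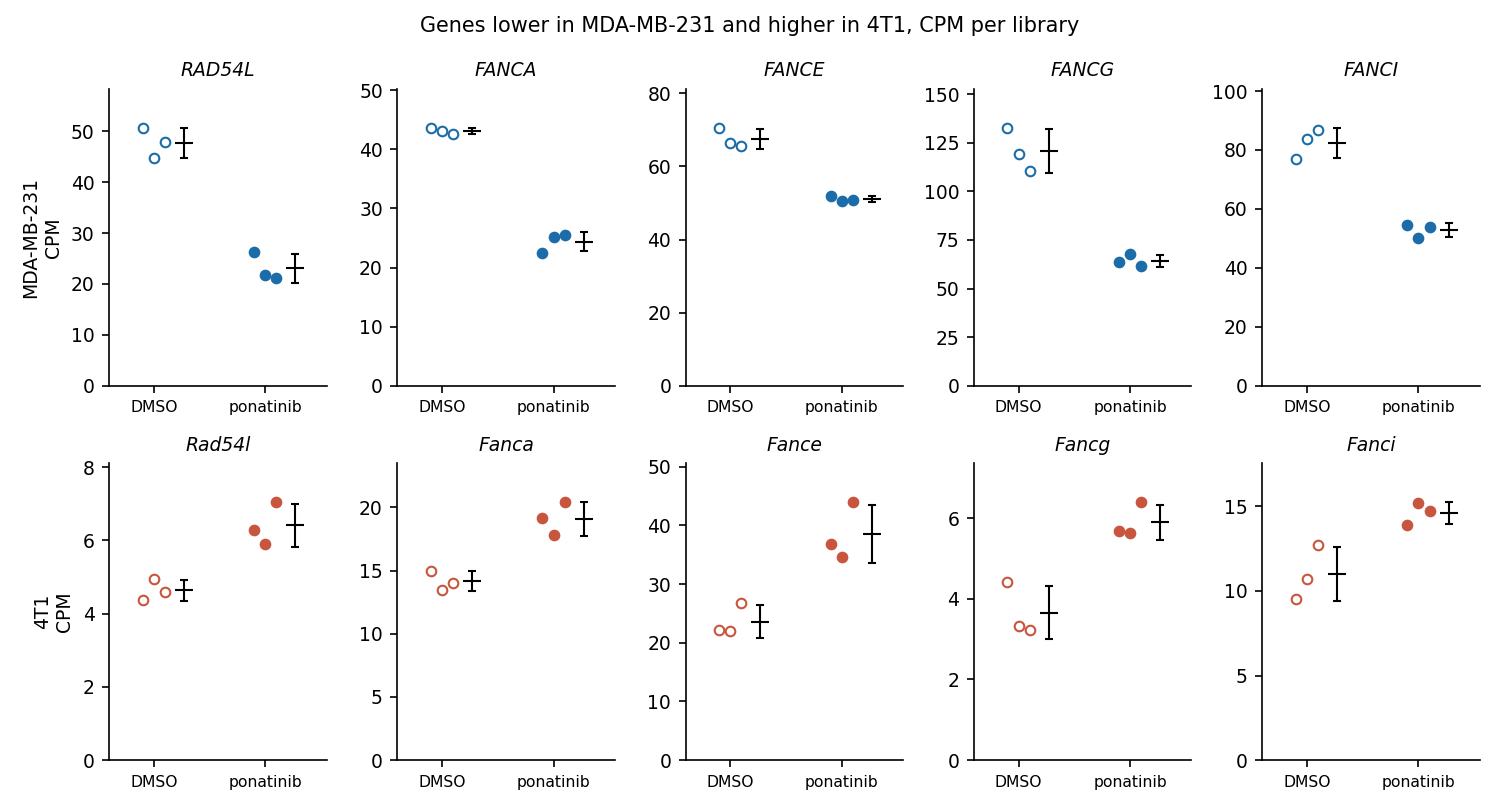
CPM (y axis, from 0) of the 5 genes called lower in MDA-MB-231 (top, blue) and higher in 4T1 (bottom, red), in each library under DMSO (open points) and ponatinib (filled points), with the mean and SD of the 3 libraries in black. The groups do not overlap in any of the 10 panels, and the shift goes down in every top panel and up in every bottom panel.

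FANCD2, the partner of FANCI in the clamp that marks a crosslink, fell in both lines. In MDA-MB-231 it stood at 17.1, 20.0 and 19.8 CPM under DMSO and at 12.4, 14.4 and 16.3 CPM under ponatinib. In 4T1 it stood at 22.3, 20.8 and 17.3 CPM against 17.0, 14.0 and 15.2 CPM. The groups came close to each other in both lines without overlap, and the log2 fold changes were -0.40 (SE 0.13, adjusted p = 0.0194) and -0.38 (SE 0.13, adjusted p = 0.0164 in edgeR's test). The call in MDA-MB-231 was lost without the second DMSO library, the third DMSO library, the first ponatinib library or the second ponatinib library (-0.31 to -0.41, adjusted p up to 0.0648), and with unscaled totals (-0.31, adjusted p = 0.106). That in 4T1 was lost without the second ponatinib library (-0.32, adjusted p = 0.0761) and with unscaled totals (-0.27, adjusted p = 0.0795). FANCD2 and FANCI had log2 fold changes of -0.38 and 0.41 in the same libraries of 4T1.

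FANCB, a subunit of the core complex that carries the ligase, stood at 3.05, 3.30 and 2.83 CPM under DMSO and at 0.883, 1.34 and 0.986 CPM under ponatinib in MDA-MB-231. All ponatinib values lay below all DMSO values, at a log2 fold change of -1.52 (SE 0.26, adjusted p = 0.000421 in edgeR's test), with few reads behind it. In 4T1 Fancb fell from 10.0 ± 1.43 to 7.07 ± 0.682 CPM (SD, n = 3 each), at -0.50, a call that was lost without the third DMSO library (-0.38, adjusted p = 0.0579 in edgeR's test). UBE2T, the ubiquitin-conjugating enzyme of the pathway, fell by 1.00 on the log2 scale in MDA-MB-231 and by 0.54 in 4T1. FANCM, the translocase that brings the core complex to DNA, was at -0.73 in MDA-MB-231 and at -0.27 in 4T1 (adjusted p = 0.0471 in edgeR's test). When libraries were left out in turn the latter call held only without the first DMSO library. It was also lost in DESeq2 (adjusted p = 0.0905), without a filter on low counts (adjusted p = 0.0946 in edgeR's test), at a minimum of 10 counts in every library (adjusted p = 0.062) and with unscaled totals (-0.16, adjusted p = 0.245). BRIP1, a helicase that partners BRCA1, was lower in MDA-MB-231 at -1.05 and not called in 4T1 at -0.31. The 4T1 value was called with the replicate block (-0.30, adjusted p = 0.0366 in edgeR's test) and without the first DMSO library (-0.44, adjusted p = 0.0089).

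Fancc, another core subunit, rose in 4T1 from a low level. It stood at 2.27, 4.17 and 2.73 CPM under DMSO and at 5.11, 4.29 and 4.50 CPM under ponatinib. The highest DMSO library nearly reached the lowest ponatinib library, and the log2 fold change of 0.60 (SE 0.22) had an adjusted p of 0.0314 in edgeR's test, which was lost in DESeq2 (0.59, adjusted p = 0.0799) and without the first library or the third library of either group (0.42 to 0.62, adjusted p up to 0.113). FANCC in MDA-MB-231 was at -0.07, and at 0.03 with unscaled totals. FANCL, the ligase itself, was not called in either line, at 0.11 in MDA-MB-231 and -0.02 in 4T1, the latter turning to 0.10 with unscaled totals, and 34.7% of its exonic bases in mouse are shared with Vrk2 on the opposite strand.

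Of the mismatch repair genes, PMS2, which nicks the strand to be corrected, was not called in MDA-MB-231 and was the gene with the deepest fall in 4T1. In 4T1 Pms2 (ENSMUSG00000079109, GRCm39 chromosome 5, 143846412 to 143870786, plus strand) stood at 19.6, 19.7 and 18.6 CPM under DMSO and at 9.10, 10.0 and 8.78 CPM under ponatinib. The groups were far apart, at a log2 fold change of -1.05 (SE 0.12, adjusted p = 2.44e-06 in edgeR's test), so that its level fell by 51.8%. In MDA-MB-231 PMS2 read 3.85, 3.56 and 4.84 CPM against 4.16, 5.93 and 6.41 CPM. These groups overlapped, with a log2 fold change of 0.43 (SE 0.21, adjusted p = 0.102) that was called with the replicate block (0.42, adjusted p = 0.0398 in edgeR's test) and without the first ponatinib library (0.59, adjusted p = 0.0209). The difference between the lines was -1.48 (SE 0.23, adjusted p = 3.25e-05 in edgeR's test), and PMS2 was the only gene of the list called with the larger log2 fold change in MDA-MB-231. The human gene has 15 named pseudogene copies in the annotation, and its counts could be split among them. MSH6, which recognises mismatches, was lower in MDA-MB-231 (88.1 ± 6.99 to 49.6 ± 4.80 CPM, SD, n = 3 each, log2 fold change -0.83) and was at -0.16 in 4T1, without overlap of the groups but not called (adjusted p = 0.0811 in edgeR's test), and 22.7% of its exonic bases in human are shared with FBXO11 on the opposite strand.

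Of the 6 checkpoint genes, 3 fell and 1 rose in MDA-MB-231, and of the 5 tested in 4T1, 3 fell and 1 rose. The shares over all genes are 26.8% for falls and 27.2% for rises in the human line, and 29.4% for falls and 29.5% for rises in the mouse line. No difference between the lines was called for these 5 genes, while 8 of the 14 recombination genes and 9 of the 11 Fanconi genes were called with a larger value in 4T1, as were 28.8% of the shared genes. Whether the groups of genes differ in this was not tested. ATM, the kinase activated by double-strand breaks, stood at 24.1, 28.2 and 29.0 CPM under DMSO and at 26.6, 32.3 and 34.3 CPM under ponatinib in MDA-MB-231. In 4T1 it stood at 19.7, 23.0 and 18.9 CPM against 20.4, 21.3 and 16.4 CPM. The groups overlapped in both lines, at log2 fold changes of 0.20 (SE 0.12) and -0.08 (SE 0.13), the latter 0.03 with unscaled totals. In MDA-MB-231 each numbered ponatinib library exceeded the DMSO library of its number, and with the replicate block the rise was called (0.20, adjusted p = 0.0243 in edgeR's test), as it was without the first ponatinib library (0.30, adjusted p = 0.034).

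ATR, the kinase of stalled forks, read 9.75, 15.5 and 15.3 CPM under DMSO and 9.27, 12.4 and 11.6 CPM under ponatinib in MDA-MB-231. The first library of each group was the lowest and the groups overlapped, with a log2 fold change of -0.29 (SE 0.18) that was called with the replicate block (-0.28, adjusted p = 0.0296 in edgeR's test) and without the first DMSO library (-0.49, adjusted p = 0.0154). In 4T1 Atr read 33.1, 40.4 and 41.8 CPM against 23.7, 29.4 and 25.1 CPM. Those groups were separate, at -0.56 (SE 0.11, adjusted p = 0.000664 in edgeR's test). ATRIP, its partner, fell in MDA-MB-231 from 17.8, 15.8 and 16.2 CPM to 7.57, 6.18 and 8.32 CPM. The groups were well separated, at -1.17 (SE 0.14, adjusted p = 2.59e-05 in edgeR's test), and 26.7% of its exonic bases are shared with TREX1 on the same strand, which was at 0.43.

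TOPBP1, which activates ATR, was lower in both lines. In 4T1 Topbp1 stood at 96.7, 108.7 and 99.6 CPM under DMSO and at 68.0, 66.2 and 59.8 CPM under ponatinib. The shift was clear of the spread, at -0.65 (SE 0.08, adjusted p = 8.03e-06 in edgeR's test), beside -0.53 in MDA-MB-231. CHEK1, the effector kinase of ATR, stood at 59.0, 62.4 and 64.0 CPM against 40.4, 44.3 and 42.2 CPM in MDA-MB-231 and at 14.9, 16.3 and 18.7 CPM against 9.97, 13.0 and 12.3 CPM in 4T1. It fell without overlap in both, at -0.55 (SE 0.08, adjusted p = 0.000168) and -0.50 (SE 0.13, adjusted p = 0.0048 in edgeR's test), and the difference of 0.04 (SE 0.15) was not called.

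CHEK2, the effector kinase of ATM, was the only gene of the list called higher in both lines, a pattern that 12.2% of the 9841 shared genes had. In MDA-MB-231 it stood at 12.2, 12.2 and 13.5 CPM under DMSO and at 17.5, 16.4 and 13.7 CPM under ponatinib. In 4T1 Chek2 went from 8.89 ± 0.850 to 13.1 ± 1.39 CPM (SD, n = 3 each). The third ponatinib library of MDA-MB-231 lay next to the highest DMSO library, and the log2 fold change of 0.33 (SE 0.13) had an adjusted p of 0.0452 in edgeR's test, while the rise in 4T1 was 0.56 (SE 0.13, adjusted p = 0.00226). The call in MDA-MB-231 was lost in DESeq2 (0.31, adjusted p = 0.136), without a filter on low counts (0.30, adjusted p = 0.103) and without any of the libraries except the third ponatinib library (0.25 to 0.37, adjusted p up to 0.135). The human gene has 7 named pseudogene copies, which could take some of its reads, as could 1 copy each for BRCA1, RAD51AP1, RBBP8 and FANCD2 in human and 2 for Topbp1 in mouse.

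Compared directly, 18 of the 32 genes tested in both lines were called with a larger log2 fold change in 4T1 than in MDA-MB-231 and 1 with a smaller one, where 28.8% and 22.6% of 9841 genes were so called. The other 13 were not called in either direction. The median difference was 0.53 over the 32 genes and 0.06 over all. Of 39 G1/S replication genes, described further below, 24 were called with a larger value in 4T1 and 0 with a smaller one. Their median difference was 0.5. For 34 G2/M and mitotic genes these values were 10, 2 and 0.2. Whether the lists differ in this was not tested. Beside the 5 genes of opposite direction, the 18 were 5 genes lower in both lines but less so in 4T1 (XRCC2, EXO1, FANCB, UBE2T and FANCM), the 6 genes called lower in MDA-MB-231 alone (BRCA2, RAD51AP1, RAD54B, XRCC3, BRIP1 and MSH6), and RAD51D and FANCC, which were called higher in 4T1 alone. The difference for FANCM (0.45, adjusted p = 0.0428 in edgeR's test) was lost with unscaled totals (0.48, adjusted p = 0.0533), held in only 2 of the 12 fits that left out a library, and fell to 0.35 (adjusted p = 0.131) without the third DMSO library of MDA-MB-231. For FANCC (0.67) it was lost without the first DMSO library of 4T1 (0.49, adjusted p = 0.0771), the third DMSO library of 4T1 (0.59, adjusted p = 0.0675) or the first ponatinib library of 4T1 (0.59, adjusted p = 0.0612). The 13 genes lower in both lines compare with 15.0% of the shared genes, and for 8 of them (BRCA1, BARD1, RAD51C, BLM, RBBP8, FANCD2, CHEK1 and TOPBP1) the difference between the lines was not called. Across the 32 genes the log2 fold changes of the lines had a Spearman rho of 0.0798, beside 0.305 across the 9841 genes, which all come from the same 12 libraries and are not independent replicates.

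**Figure D4:**
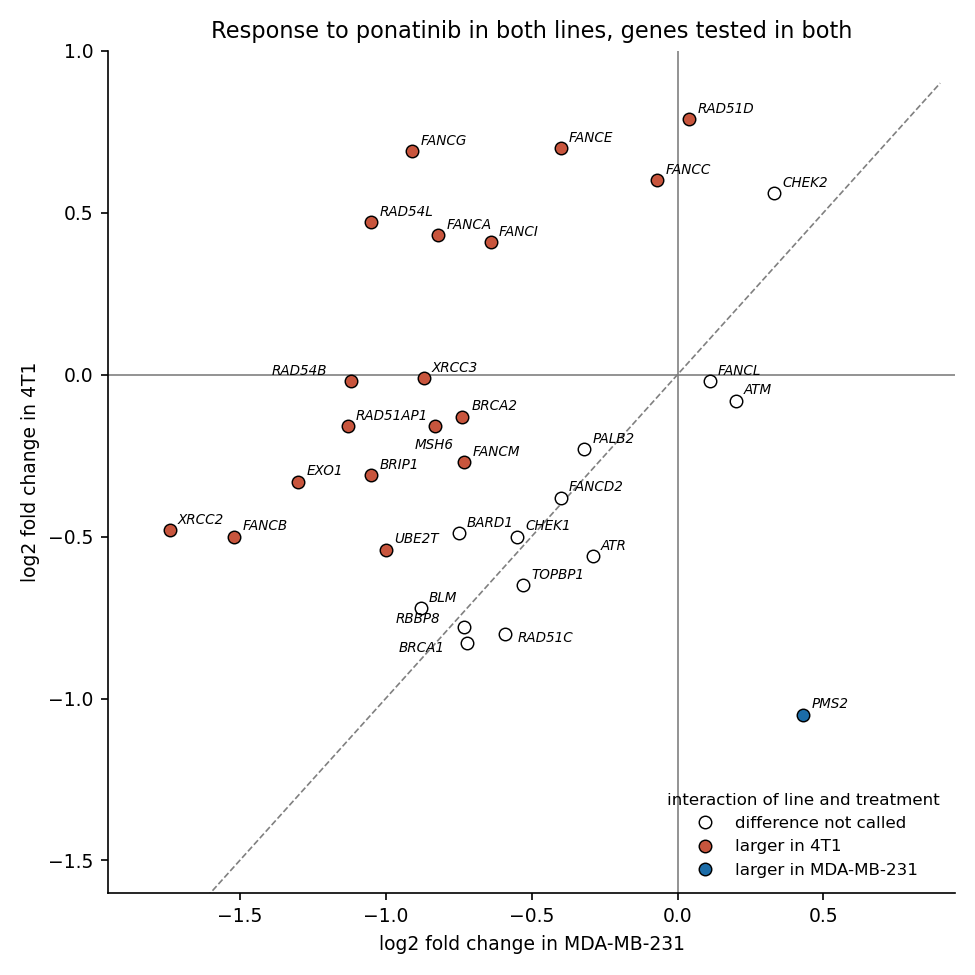
Log2 fold change in 4T1 (y axis) against that in MDA-MB-231 (x axis) for the 32 genes tested in both lines, coloured by the call of the interaction, with the dashed line marking equal change. The 18 genes called with a larger value in 4T1 lie above the line, PMS2 lies alone at the lower right, and BRCA1, RAD51C, CHEK1, TOPBP1 and FANCD2 lie near the line.

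The levels from which these changes started differed along the list. Per kilobase of the canonical transcript, UBE2T was the highest in MDA-MB-231 under DMSO at 78.7 CPM per kb, followed by FANCG at 47.2, XRCC3 at 35.1 and FANCE at 26.2, and the lowest were RAD51D at 0.456, BRCA2 at 0.683 and PMS2 at 0.802. In 4T1 the highest were Topbp1 at 19.2 CPM per kb, Rbbp8 at 13.3, Msh6 at 12.5 and Fance at 11.6, and the lowest were Atrip at 0.0505, Rad54l at 0.536 and Fancc at 0.973. Under ponatinib UBE2T was still the highest in MDA-MB-231, at 39.4 CPM per kb, while in 4T1 Fance, at 19.0 CPM per kb, stood above Topbp1, at 12.2 CPM per kb. The order depends on the length of 1 annotated transcript per gene, such as 878 bases for UBE2T and 9966 for RAD51D. In CPM under DMSO, UBE2T (69.1) stood below FANCG (120.7) and XRCC3 (90.0) in MDA-MB-231.

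Genes of the same processes outside the list were counted from lists written for this comparison, and their counts stand beside the same shares over all genes, which are 26.8% for falls and 27.2% for rises in MDA-MB-231, with 29.4% for falls and 29.5% for rises in 4T1. Of 29 other recombination and Fanconi genes, 13 fell and 4 rose in MDA-MB-231 (median -0.28), while 4T1 had 6 falls and 6 rises (20.7% each, below the shares of all genes, median 0.02). USP1, the enzyme that removes ubiquitin from FANCD2, fell in both lines, from 97.4 ± 12.3 to 50.2 ± 5.42 CPM in MDA-MB-231 and from 71.7 ± 5.86 to 40.7 ± 3.0 CPM in 4T1 (SD, n = 3 each). Polq, the polymerase of end joining at short homologies, fell by 0.97 on the log2 scale in 4T1, and RAD50, of the complex that senses broken ends, rose by 0.74 in MDA-MB-231. Of 12 genes of end joining and end protection tested in each line, 4 fell and 1 rose in MDA-MB-231 (median -0.34), whereas 3 fell and 5 rose in 4T1 (median 0.20). Rif1, which shields ends from resection, fell by 1.09 in 4T1 and by 0.54 in MDA-MB-231, and Paxx, an end-joining factor, rose by 0.96 in 4T1. Of the excision repair genes, 11 of 29 fell and 4 rose in MDA-MB-231 (median -0.08), and 8 of 30 (26.7%, near the share of all genes) fell and 11 rose in 4T1 (median 0.15). Of 3 other mismatch repair genes, 1 was lower in each line, PMS1 in MDA-MB-231 (-0.59) and Msh3 in 4T1 (-0.47).

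Of 18 other checkpoint and damage signalling genes, 7 fell and 3 rose in MDA-MB-231 (median -0.18), and 9 fell with no rise in 4T1 (median -0.38). CDC25A, the phosphatase that CHEK1 targets, fell from 59.2 ± 4.19 to 11.9 ± 1.25 CPM in MDA-MB-231, and CLSPN, the mediator between ATR and CHEK1, from 24.5 ± 3.13 to 7.15 ± 1.08 CPM (SD, n = 3 each). Of 14 transcripts known to respond to DNA damage, 7 fell and 4 rose in MDA-MB-231, whereas 4T1 had 7 falls and 5 rises. CDKN1A, the cell cycle inhibitor p21, was lower in both lines, from 245.7 ± 4.93 to 38.5 ± 2.41 CPM in MDA-MB-231 and from 163.2 ± 19.1 to 93.1 ± 3.73 CPM in 4T1 (SD, n = 3 each). GADD45B, a stress-induced gene of the same list, was higher in both, from 72.2 ± 3.62 to 133.1 ± 9.78 CPM in MDA-MB-231 and from 6.32 ± 0.751 to 36.3 ± 2.0 CPM in 4T1 (SD, n = 3 each). BBC3 and PMAIP1, genes of cell death on that list, went opposite ways in the lines. BBC3 rose by 1.86 on the log2 scale in MDA-MB-231 and was called lower in 4T1 (-0.51). PMAIP1 was called lower in MDA-MB-231 (-0.52) and rose by 0.94 in 4T1.

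Most cell cycle genes were called lower with ponatinib in both lines, as were most repair genes of the list in MDA-MB-231. The 32 repair genes tested in 4T1 had 15 falls (46.9%) and 8 rises, and 24 of them had a log2 fold change below 0. With the replicate number as a block, 16 were called lower there. Whether repair and cell cycle genes differ in this was not tested. Over all genes, falls made up 26.8% and rises 27.2% for MDA-MB-231, beside 29.4% and 29.5% for 4T1. Of the G1/S replication genes, all 39 tested were lower in MDA-MB-231 (median -1.09), and 27 of 40 were lower and 3 higher in 4T1 (median -0.53). Of 34 G2/M and mitotic genes, 29 fell and none rose in MDA-MB-231 (median -0.55), and 26 fell and 1 rose in 4T1 (median -0.35). RRM2, a subunit of ribonucleotide reductase, had the largest fall of the former list in MDA-MB-231 at -2.99. The part of the cell cycle in the changes of the repair genes was not tested.

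**Figure D5:**
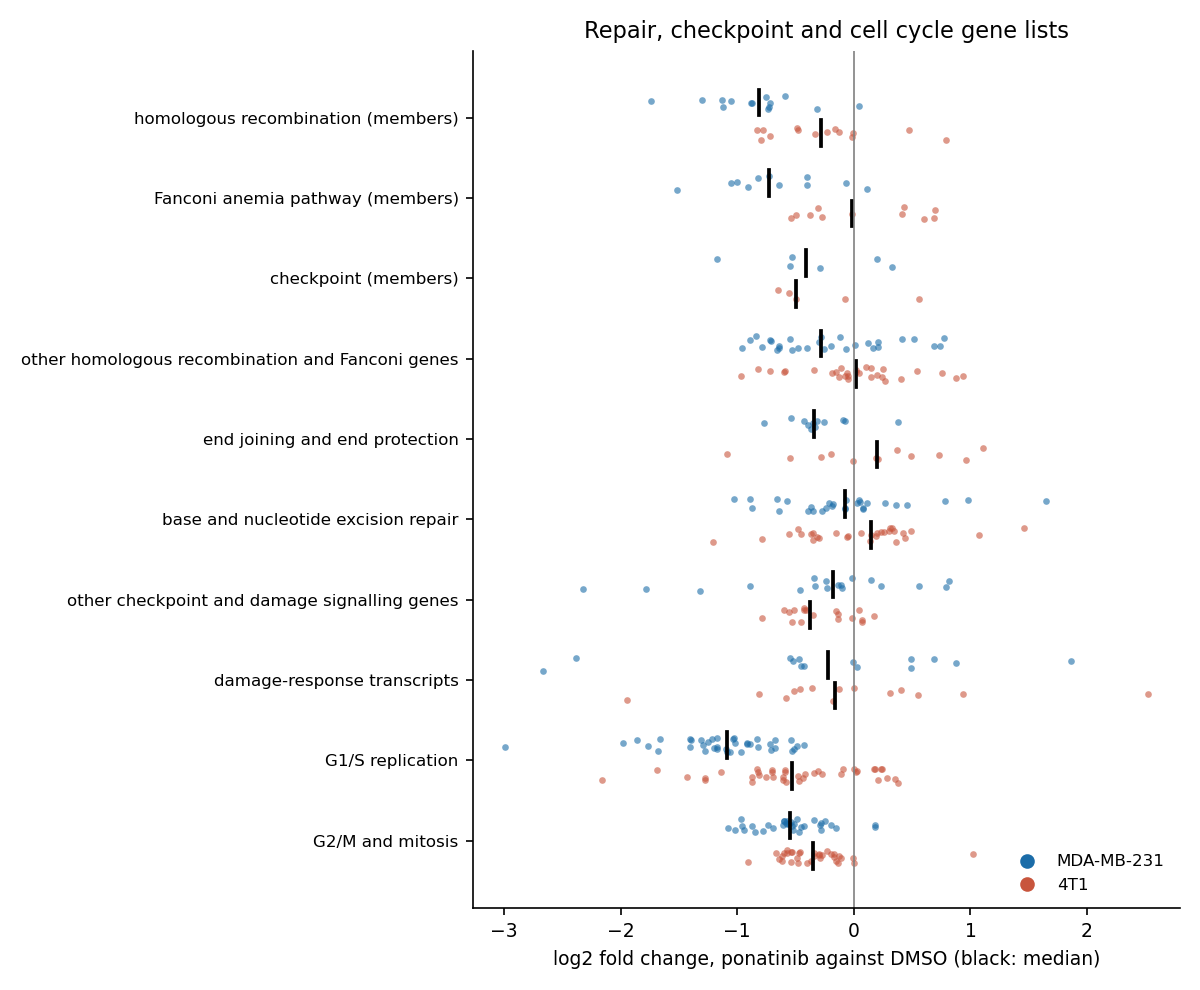
Log2 fold change of ponatinib against DMSO (x axis) for each tested gene of 10 lists (rows), in MDA-MB-231 (blue) and 4T1 (red), with the median as a black bar. The medians of the recombination members (-0.81 and -0.28) lie between those of G1/S replication (-1.09 and -0.53) and those of the other recombination and Fanconi genes (-0.28 and 0.02) in both lines.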

How the data were processed

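The 12 files hold raw counts per gene. According to the study's methods, the authors removed adapters and poly-N reads, aligned the reads with HISAT2 to hg38 or GRCm39 and counted them with HTSeq, and they deposited the counts without normalization. Versions, annotation and strand setting are not given in the sources used here. Libraries were grouped by their titles. Names and coordinates come from GENCODE (hg38 and GRCm39), which matched 81.9% of the human identifiers (99.32% of counts) and 91.1% of the mouse identifiers (99.79%).

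For each line, ponatinib was compared with DMSO by the quasi-likelihood test of edgeR 4.0.16 (R 4.3.3) after filterByExpr and TMM scaling, and p-values were adjusted by Benjamini-Hochberg over all 14610 or 13286 genes tested. An interaction of line and treatment, fitted over 9841 genes of the same symbol, compared the lines. TMM factors were 0.926 to 0.989 for DMSO and 0.997 to 1.06 for ponatinib libraries. No normalized values, fold changes or p-values of the authors were used. The genes and lists were chosen with earlier results of these data known, and lists are described by counts and medians without a set test.

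Values in every library are given for the 6 called genes of the list with the largest falls and the 4 with the largest rises in each line (no overlap between the groups, the higher group averaging 1 CPM or more), for those of opposite direction, for the 4 with the smallest adjusted p of the interaction, and for BRCA1, BRCA2, ATM, ATR, CHEK1 and FANCD2, while PMS2 and CHEK2 of the other line were added after their values were seen. Of each other list the up to 2 largest called falls and rises per line could be named. The values of Bbc3 in 4T1 and PMAIP1 in MDA-MB-231 were added after they were seen. Promoters were taken from RefSeq (GRCh38.p14) and GRCm39.

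Replicate numbers were checked for pairing by how far libraries of the same number deviated together from their group means (correlations of 0.345, 0.111 and 0.133 for MDA-MB-231, and of 0.213, 0.119 and 0.115 for 4T1). All exceed 0.1, but DMSO library 2 of MDA-MB-231 and DMSO library 3 of 4T1 correlated best with a ponatinib library of another number. The main fits did not use the replicate number, so their calls are unpaired. Results whose call changed with the replicate number as a block are printed with both. Alternatives were DESeq2 1.42.0, its size factors, unscaled totals, other filters, the study's thresholds and leaving out each library. Between replicates the chi-square per gene was 2.98 to 16.2. The steps were tested on simulated counts. There the interaction test recovered 31.9% of true differences of 0.58 on the log2 scale and 56.2% of those of -0.58. For differences of 1 and -1 it recovered 97.7% and 95.6%. A difference between the lines that was not called may therefore have been missed. The number of counts limits the precision of the genes with the lowest levels (FANCB, RAD54B, RAD51D and PMS2 in MDA-MB-231, Fancc, Fancg, Rad54l and Rad54b in 4T1).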

Additional observations from a re-analysis of the deposited data

Results flagged for a closer look

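The response to ponatinib differed between the lines, by the test of the interaction in edgeR (Benjamini-Hochberg adjusted p under 0.05 over 9841 genes), for 19 of the 32 genes. As the log2 fold change in 4T1 minus that in MDA-MB-231, the difference was 1.60 for FANCG, 1.51 for RAD54L, 1.25 for FANCA, 1.11 for FANCE and 1.05 for FANCI, the genes that fell in MDA-MB-231 and rose in 4T1 in 3 of 3 libraries each. It was 1.26 for XRCC2, 1.02 for FANCB, 0.97 for EXO1, 0.46 for UBE2T and 0.45 for FANCM, which were called lower in both lines. It was 1.10 for RAD54B, 0.97 for RAD51AP1, 0.87 for XRCC3, 0.74 for BRIP1, 0.67 for MSH6 and 0.61 for BRCA2, which were called only in MDA-MB-231, and 0.75 for RAD51D and 0.67 for FANCC, which were called only in 4T1. PMS2 was the gene with a called difference in the other direction, at -1.48. The lines are of different species, were aligned to different genomes and start from different levels, so that line, species and annotation cannot be told apart in these differences.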

How the results depend on the processing

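No call of a single gene turned to the opposite direction under any alternative. Values that changed sign were small and not called: with unscaled totals FANCC in MDA-MB-231 (0.03) and Rad54b (0.10), Xrcc3 (0.11), Fancl (0.10) and Atm (0.03) in 4T1, and at a minimum of 10 counts in every library Xrcc3 (0.01) and Fancl (0.00) in 4T1. Leaving out 1 library at a time, ranges that crossed 0 were -0.04 to 0.15 for RAD51D and -0.01 to 0.25 for FANCL in MDA-MB-231, -0.16 to 0.11 for Rad54b, -0.07 to 0.11 for Xrcc3, -0.12 to 0.13 for Fancl and -0.15 to 0.03 for Atm in 4T1, and for the difference between the lines -0.01 to 0.20 for PALB2, -0.21 to 0.06 for RBBP8, -0.08 to 0.12 for FANCD2, -0.27 to 0.02 for FANCL and -0.04 to 0.15 for CHEK1. The cause was not tested.

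Of the counts, the 25 genes lower in MDA-MB-231 became 24 to 27 when a library was left out. The 1 gene higher there became 0 to 2, 0 in DESeq2, without a filter and at the study's thresholds (unadjusted p under 0.05 and a fold of at least 1.5), and 3 with the replicate block. The block added PALB2, PMS2, ATM and ATR in MDA-MB-231 and Brip1 in 4T1 and removed no call. In 4T1, 13 to 16 genes were lower and 6 to 8 higher without a library, and 6 and 4 at the study's thresholds, which also reduced, over all genes, those lower in MDA-MB-231 from 3918 to 2115, those lower in 4T1 from 3909 to 1735 and those higher in 4T1 from 3925 to 2451. With unscaled totals the median of the list was -0.63 for MDA-MB-231 and -0.14 for 4T1, a setting that moved the median of all genes to 0.11 and 0.12, and -0.82 to -0.67 and -0.31 to -0.19 without a library. The larger differences in 4T1 numbered 15 to 18 without a library, and PMS2 kept the opposite one throughout. Unscaled totals also shifted the genes lower and higher over all genes to 3097 and 4641 in MDA-MB-231 and to 2935 and 4854 in 4T1. Calls of single genes lost under an alternative were those of CHEK2 and FANCD2 in MDA-MB-231, of Exo1, Rad54l, Fancb, Fancc, Fancd2 and Fancm in 4T1, and of the differences between the lines for BRCA2, FANCC and FANCM, with values beside each gene.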
